A study of Mus musculus with 6 samples.

Results

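Lysosomes break down proteins, lipids and glycans that reach them by endocytosis and autophagy, and in denervated muscle they degrade part of the cell content that is lost with the fiber mass. Their lumen is filled with acid hydrolases, among them the cathepsin proteases and the glycosidases, and is kept acidic by the V-ATPase, a rotary proton pump made of a cytosolic V1 sector that hydrolyzes ATP and a membrane V0 sector that moves protons. Heavily glycosylated membrane proteins line the organelle, and the transcription factor Tfeb activates many lysosomal genes through the E-box sequence CACGTG.

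To describe how mRNA levels of these components differ in muscle that has lost its nerve, 37 genes were examined: 9 cathepsins, 6 glycosidases, 6 other hydrolases and activators that mostly act on lipids, 6 membrane proteins, 9 V-ATPase subunits and Tfeb. They were chosen by name with earlier results of these data known, so that counts and medians of the groups are given as a description. Every probe of the array annotated to a listed symbol was taken. The array held 52 such probes of 25697 in all, for 35 of the 37 genes. Npc1 and the V0 subunit Atp6v0c have no probe in the annotation used and were not analysed here. Of the 52 probes, 44 passed the filter on dim probes, which asked for a signal above background on at least 3 of the 6 arrays, and they represented 34 genes. The only probe of the galactosidase Gla was above background on 0 of 6 arrays.

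The denervated samples were left gastrocnemius (GA) muscles of adult male mice, taken 14 days after the sciatic nerve of that leg had been interrupted by cutting out a stretch (n = 3). The control samples were right GA muscles, whose nerve was left intact (n = 3), so that the controls came from operated animals and not from sham surgery. The labels name no strain and do not give the number of mice. The p-values therefore measure the spread between these samples, which may be in part technical. Whole muscle was profiled, and a change in the number of cells of a type cannot be told apart from a change of RNA per cell.

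All 8 markers of skeletal muscle fibers were above background on every array, and 5 of them lay near the ceiling of the scanner. Of 25697 probes, 11551 to 12785 were above background on an array, and pairs of arrays within a group had correlations from 0.988 to 0.994. The signals of the 44 kept lysosomal probes before background correction ran from 151 to 17651 and averaged over 23 to 63 beads, so that none was near the ceiling. All 6 arrays shared a chip on which each group filled neighbouring positions, and position and group cannot be told apart.

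The start regions of the genes were read first, since Tfeb acts on them. RefSeq promoter windows of mouse assembly GRCm38.p6, which run from 250 bases before to 50 bases after an annotated transcription start, were matched by symbol for 30 of the 37 genes. The motif CACGTG, which reads the same on both strands, was found in a window of 11 of these 30 genes (36.7%), against 8.09% of the 27025 genes in the table. The longer palindrome TCACGTGA, which contains CACGTG, was found in 6 of 30 genes (20%), against 1.12% of all genes. Of the genes described below, Ctsl held CACGTG from position -236, and Cd63, Scarb2, Hexa, Tpp1 and Tfeb held neither motif in these windows. A match is only a stretch of letters in these windows and does not show that Tfeb binds there.

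Windows of 4 genes are shown because they carry the motif and bear on the results below. Ctsd, Atp6v0d1 and Atp6v1a are the genes with TCACGTGA in a window that were higher in denervated muscle. TCACGTGA was also found in windows, not shown, of Ctsa and Mcoln1, which were not called, and of Gla, which was not tested. Ctsa and Gla hold 2 copies of it each. Lamp1 holds the most copies of CACGTG, with 4, but was not called. Capitals mark CACGTG or, where it is present, TCACGTGA. Positions are counted from the transcription start, with the base before it as -1. The Ctsd window (chr7:142387778-142388077, minus strand) holds CACGTG from -245 and TCACGTGA around the copy at -98.
Ctsd: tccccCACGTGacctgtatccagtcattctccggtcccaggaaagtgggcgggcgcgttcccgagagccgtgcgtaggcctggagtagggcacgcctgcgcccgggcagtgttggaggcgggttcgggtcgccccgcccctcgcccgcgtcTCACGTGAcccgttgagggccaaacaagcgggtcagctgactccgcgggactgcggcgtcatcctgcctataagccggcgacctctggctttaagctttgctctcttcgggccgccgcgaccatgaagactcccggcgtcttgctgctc
The Atp6v0d1 window (chr8:105566015-105566314, minus strand) holds TCACGTGA across the start itself, from -4.
Atp6v0d1: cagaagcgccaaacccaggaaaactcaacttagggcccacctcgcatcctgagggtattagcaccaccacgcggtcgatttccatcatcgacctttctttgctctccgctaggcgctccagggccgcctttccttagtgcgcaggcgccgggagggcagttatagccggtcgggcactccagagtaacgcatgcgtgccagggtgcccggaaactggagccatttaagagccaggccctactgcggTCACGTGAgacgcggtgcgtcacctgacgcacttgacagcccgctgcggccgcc
The Atp6v1a window (chr16:44139210-44139509, minus strand) belongs to a start inside the outermost bounds of the gene and holds TCACGTGA from -132.
Atp6v1a: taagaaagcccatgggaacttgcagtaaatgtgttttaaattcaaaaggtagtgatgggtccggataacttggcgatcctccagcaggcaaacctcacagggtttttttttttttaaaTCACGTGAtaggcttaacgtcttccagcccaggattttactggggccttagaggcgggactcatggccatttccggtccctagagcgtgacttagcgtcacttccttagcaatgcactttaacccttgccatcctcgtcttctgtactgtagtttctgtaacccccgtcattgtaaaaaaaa
The Lamp1 window (chr8:13158911-13159210, plus strand) holds copies from -61, -45, -28 and -15.
Lamp1: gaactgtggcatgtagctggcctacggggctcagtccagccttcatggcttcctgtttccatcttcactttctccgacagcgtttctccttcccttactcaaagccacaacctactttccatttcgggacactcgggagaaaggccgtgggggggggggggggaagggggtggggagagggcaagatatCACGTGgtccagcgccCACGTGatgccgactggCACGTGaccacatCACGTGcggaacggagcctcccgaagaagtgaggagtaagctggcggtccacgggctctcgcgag

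Lysosomal mRNAs were higher in denervated muscle more often than they were lower. Of the 34 genes tested, 16 rose, 2 fell and 16 did not pass the threshold (limma, adjusted p under 0.05 over all 12546 kept probes). The rises were those of 6 cathepsins, 3 glycosidases, 3 membrane proteins, 3 subunits of the proton pump and the acid ceramidase Asah1, while the falls were those of the peptidase Tpp1 and of Tfeb. The 16 rises were 47.1% of the genes tested, and 22.2% of all 8740 genes tested on the array rose. The 2 falls were 5.88%, against 21.6% of all genes. The median log2 fold change (denervated minus control) was 0.34 over the 34 genes and -0.0033 over all genes.

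The changes were moderate. On the log2 scale a difference of 1 is a doubling, and 4 of the 34 genes were called higher by more than that, namely Ctsl, Atp6v1a, Scarb2 and Cd63, where 5.96% of all genes did so. None fell by more than 2-fold (0 of 34, against 5.94% of all genes). Ctsl ranked 223 and Atp6v1a 227 among the 8740 genes by size of rise. In 18 of the 34 genes the 3 denervated values lay above all 3 control values, against 28.2% of all genes, and in 4 they lay below, against 26.8%, which makes 22 genes without overlap, against 55% of all genes. Counted by probe, 22 of the 44 kept lysosomal probes were called higher and 2 lower, against 21.9% and 21% of all kept probes. The balance of all calls depends on the scaling of the arrays, whose brightest signals differed (95th percentile of 4000 to 4048 on the denervated and 2897 to 3022 on the control arrays). When each array was shifted to a common median in place of quantile normalization, 73.2% of all called genes were rises, against 50.6%, and the median of all genes moved to 0.20. The median of the lysosomal genes exceeded that of all genes by 0.37 under this scaling and by 0.34 under quantile normalization, and 22 members were then called higher and 1 lower.

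**Figure D1:**
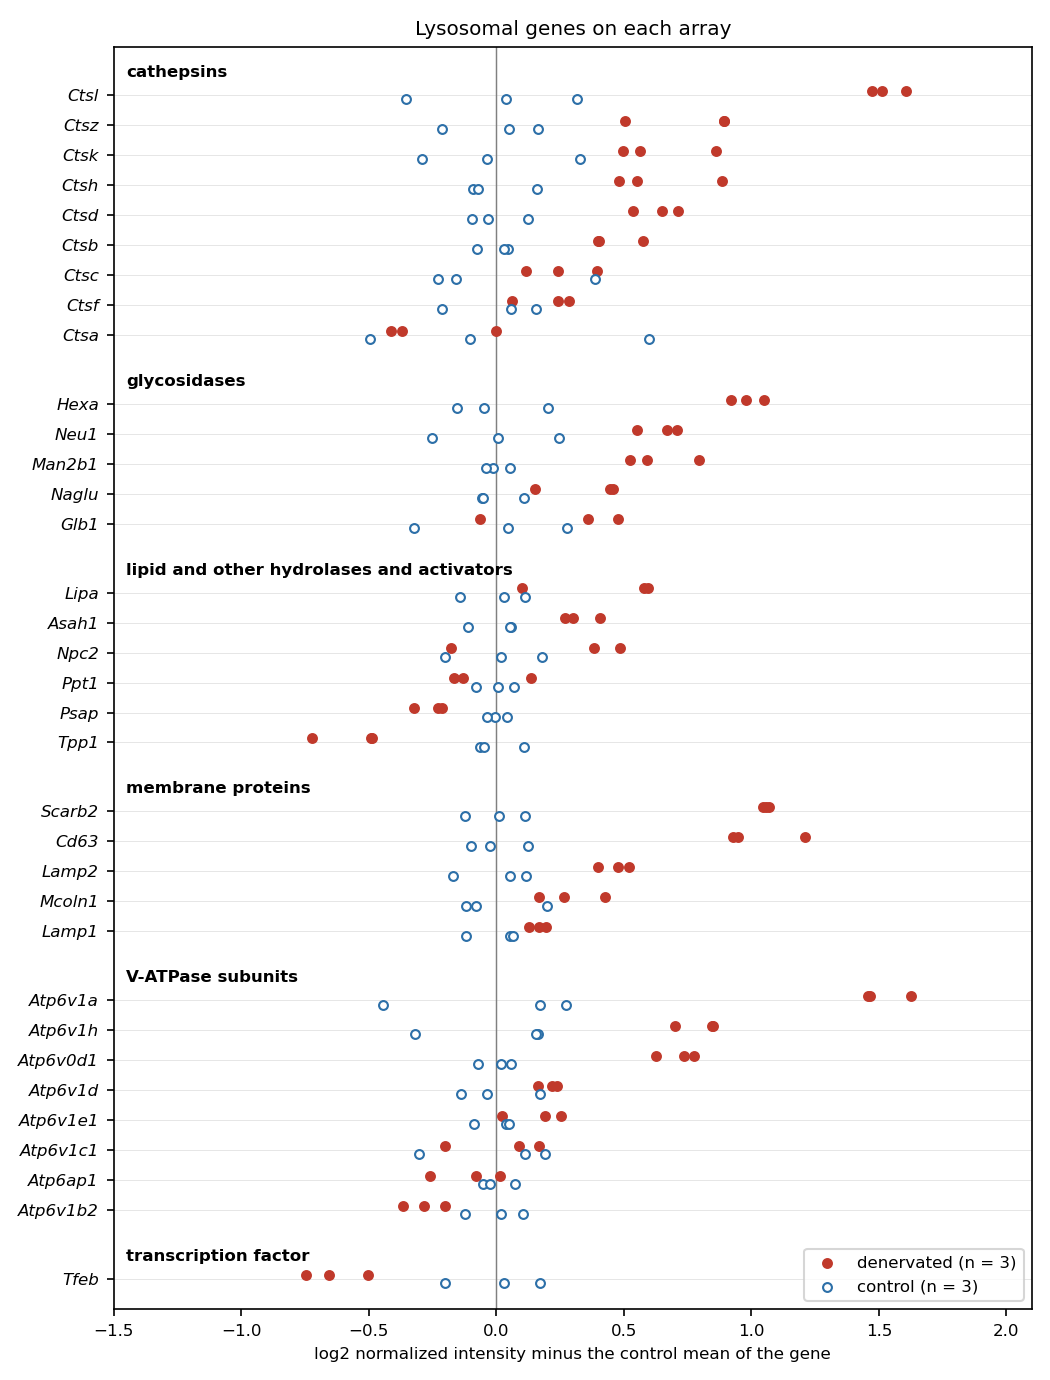
Normalized log2 intensity of the 34 lysosomal genes on each array, with the control mean of the gene subtracted (x axis, log2 units), for 3 denervated (filled) and 3 control (open) arrays, by group of genes (y axis). The denervated points of 18 genes lie to the right of all control points, and those of 4 genes (Tpp1, Psap, Atp6v1b2 and Tfeb) to the left.

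The cathepsins, proteases that cleave proteins in the lysosome, rose in 6 of 9 genes and fell in 0. These shares were 66.7% and 0%, against 22.2% and 21.6% of all genes. The median log2 fold change of the cathepsins was 0.63. The largest rise of all 34 genes was that of Ctsl, a cysteine protease. Its normalized log2 intensity was 8.63, 8.50 and 8.54 on the denervated arrays, against 6.67, 7.34 and 7.06 on the control arrays. The groups were far apart, and the control arrays differed among themselves more than the denervated ones did. Ctsl rose 2.89-fold (log2 fold change of 1.53 ± 0.17, here and below ± SE with n = 3 in each group; limma adjusted p = 0.000167). Without background correction its log2 fold change was 1.002.

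Other cathepsins rose by less. Ctsz, a carboxypeptidase of the cysteine type, had 8.14, 8.14 and 7.76 in denervated muscle, against 7.30, 7.42 and 7.04 in control muscle (0.76 ± 0.15; limma adjusted p = 0.00428), and its other kept probe gave 0.99. The log2 fold change of Ctsz was 0.49 without background correction and with the authors' normalized values. The aminopeptidase Ctsh had 9.45, 9.12 and 9.05 in denervated and 8.73, 8.48 and 8.49 in control muscle (0.64 ± 0.14). In both genes every denervated value was above every control value, and for Ctsh the first denervated array was the highest. The aspartic protease Ctsd, whose window is shown above, had 8.54, 8.48 and 8.36 in denervated muscle, against 7.95, 7.73 and 7.80 in control muscle (0.63 ± 0.12; 1.55-fold). Ctsk, the collagen-degrading cathepsin of osteoclasts, had 9.81, 9.45 and 9.52 in denervated and 9.28, 8.66 and 8.91 in control muscle (0.64 ± 0.18). These groups did not overlap either, but for Ctsk the gap between the closest arrays of the groups was small. The call of Ctsk was lost without denervated replicate 1 (limma adjusted p = 0.0668, log2 fold change of 0.53) or control replicate 2 (0.0582, log2 fold change of 0.49). Ctsb, an abundant cysteine protease, stood at 13.95, 13.78 and 13.77 in denervated and at 13.42, 13.40 and 13.30 in control muscle, a rise of 0.46 ± 0.11 (1.37-fold).

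The remaining cathepsins were not called. Ctsf had a log2 fold change of 0.20 ± 0.14, with 8.15, 8.33 and 8.38 in denervated muscle against 7.88, 8.15 and 8.25 in control muscle. For Ctsc, the peptidase that activates granule proteases of immune cells, the value was 0.25 ± 0.18, and its probe was above background on only 1 of 3 control arrays but on 3 of 3 denervated arrays. Without that control array, replicate 3, Ctsc was called (0.45, limma adjusted p = 0.0359). With other single arrays left out its limma adjusted p reached 0.59. Ctsa, a carboxypeptidase that protects neuraminidase and beta-galactosidase in a complex, had the lowest value of the group, at 7.31, 7.27 and 7.68 in denervated muscle and 8.28, 7.58 and 7.19 in control muscle. Its groups overlapped, the control arrays spread widely, and the 95% confidence interval of the difference (-0.84 to 0.32, not adjusted for the number of genes) covers both directions. The 3 other probes of Ctsa and 2 of the 3 probes of Ctsc were above background on 0 arrays.

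The glycosidases, which remove sugars from glycoproteins, glycolipids and glycosaminoglycans, all had positive log2 fold changes, with a median of 0.64. Of the 5 tested 3 rose and 0 fell (60% and 0%, against 22.2% and 21.6% of all genes). Hexa, the alpha subunit of beta-hexosaminidase, which degrades gangliosides, had 11.16, 11.03 and 11.09 on the denervated arrays, against 9.95, 10.31 and 10.06 on the control arrays. The groups were well apart, and Hexa rose by 0.98 ± 0.13 (1.98-fold; limma adjusted p = 0.000405). The sialidase Neu1 had 10.25, 10.40 and 10.37 in denervated and 9.94, 9.70 and 9.45 in control muscle (0.64 ± 0.15). The alpha-mannosidase Man2b1 had 10.41, 10.21 and 10.14 in denervated and 9.67, 9.61 and 9.58 in control muscle (0.64 ± 0.12). For both, all denervated arrays were above all control arrays.

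Naglu, which cleaves heparan sulfate, and the beta-galactosidase Glb1 did not pass. Naglu had 7.58, 7.57 and 7.28 in denervated muscle, against 7.07, 7.07 and 7.23 in control muscle, without overlap (0.35 ± 0.13; limma adjusted p = 0.0539). Glb1 had 7.51, 7.40 and 6.97 in denervated and 6.71, 7.31 and 7.08 in control muscle, with overlapping groups (0.26 ± 0.19, 95% confidence interval -0.18 to 0.70). Naglu was near the threshold and was called when denervated replicate 3, its lowest denervated array, was left out (0.45, limma adjusted p = 0.0262). With other single arrays left out its limma adjusted p reached 0.162.

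The other hydrolases and activators moved in both directions, with a median of 0.089. Of 6 genes 1 rose and 1 fell, which is 16.7% each and below the 22.2% and 21.6% of all genes. Tpp1, a tripeptidyl peptidase whose loss causes a neuronal storage disease, had 8.57, 8.80 and 8.80 in denervated muscle, against 9.23, 9.25 and 9.40 in control muscle. After normalization it was lower on every denervated array and fell by 0.57 ± 0.12 (1.48-fold, limma adjusted p = 0.00556). Before background correction and normalization the Tpp1 signals overlapped, at 568, 627.9 and 656.8 in denervated and 606.2, 603.7 and 679.6 in control muscle. The denervated arrays were brighter at that stage, with median signals of 158.9 to 177, against 144.2 to 154.5 on the control arrays. Signals from before these steps carry this difference, for rises as for falls. Here and below they are given only for genes that were lower after normalization. With the arrays shifted to a common median its log2 fold change was -0.31 and its call was lost (limma adjusted p = 0.0919). Psap, the precursor of the saposins that present sphingolipids to their hydrolases, had 13.30, 13.20 and 13.31 in denervated and 13.57, 13.52 and 13.49 in control muscle (-0.26 ± 0.11; limma adjusted p = 0.0835). All denervated values of Psap were below the control values after normalization, by a narrow margin. Before background correction and normalization all its denervated signals (11906, 10958 and 11547) were above the control signals (10386, 10048 and 10178). With the arrays shifted to a common median its log2 fold change was -0.07 (limma adjusted p = 0.642).

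Asah1, the acid ceramidase, was called higher, but by little. It had 11.95, 11.82 and 11.85 in denervated muscle, against 11.61, 11.60 and 11.44 in control muscle (0.33 ± 0.11; limma adjusted p = 0.0451), and its other kept probe gave 0.26 ± 0.18 and was not called. The call was lost whichever of the 6 arrays was left out, at adjusted p of 0.0649 to 0.135, and with the arrays shifted to a common median the log2 fold change was 0.55. Lipa, the acid lipase that frees cholesterol and fatty acids, had 7.20, 7.18 and 6.70 in denervated and 6.71, 6.63 and 6.46 in control muscle (0.42 ± 0.16; limma adjusted p = 0.0593). A single denervated array overlapped the control range, and without it, denervated replicate 3, Lipa was called (0.59, limma adjusted p = 0.0115). With other single arrays left out the limma adjusted p of Lipa reached 0.184. The cholesterol carrier Npc2 (0.23 ± 0.19) and the thioesterase Ppt1 (-0.05 ± 0.13) had overlapping groups.

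**Figure D2:**
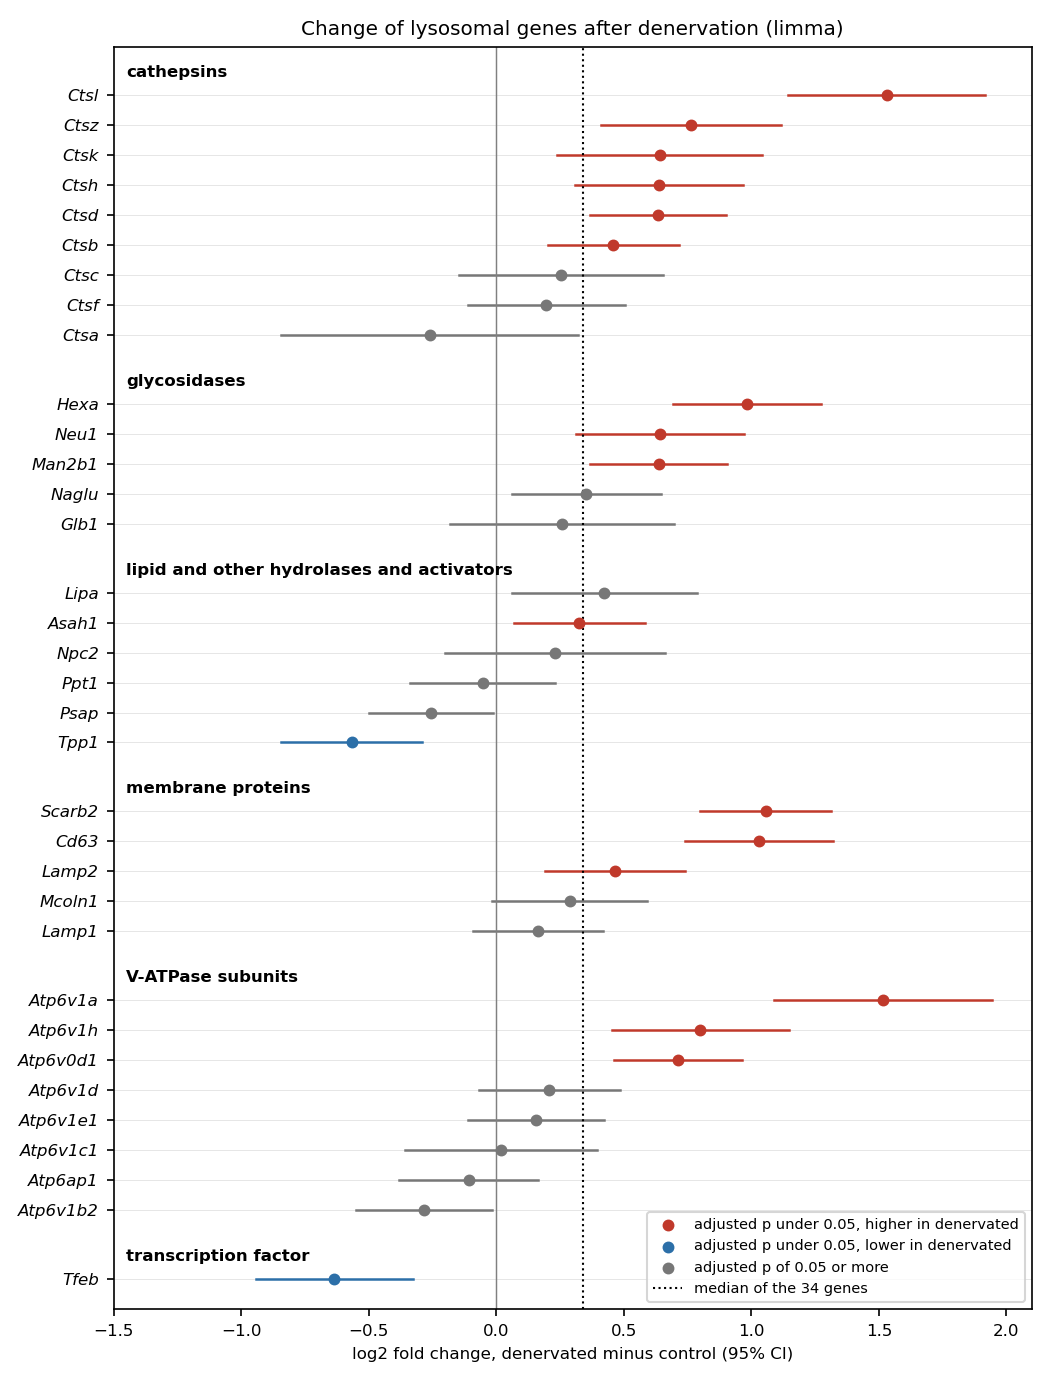
Log2 fold change of the 34 lysosomal genes (x axis, denervated minus control, 95% confidence interval of the limma fit, not adjusted for the number of genes), by group of genes (y axis). The 16 called rises lie in red, the calls of Tpp1 and Tfeb as lower in blue, and the dotted line marks the median of the 34 genes at 0.34.

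Of the 5 membrane proteins tested 3 rose and 0 fell (60% and 0%, against 22.2% and 21.6% of all genes). Their median was 0.47. Scarb2, which is also called Limp2 and carries glucocerebrosidase to the lysosome, had 10.76, 10.79 and 10.77 on the denervated arrays, against 9.83, 9.73 and 9.59 on the control arrays. The denervated arrays were nearly alike, and Scarb2 rose by 1.06 ± 0.11 (2.08-fold; limma adjusted p = 0.000134). The tetraspanin Cd63 had 13.88, 13.60 and 13.62 in denervated muscle, against 12.57, 12.64 and 12.79 in control muscle (1.03 ± 0.13; 2.04-fold; limma adjusted p = 0.000302). Its 2 other probes were called as well, at 0.88 and 0.73, so that the rise was seen by all 3 probes.

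The Lamp proteins, the main glycoproteins of the lysosomal membrane, changed less. Lamp2, needed for the fusion of autophagosomes and for chaperone-mediated autophagy, had 13.14, 13.10 and 13.02 in denervated muscle, against 12.68, 12.74 and 12.45 in control muscle by its brightest probe (0.47 ± 0.12; 1.38-fold; limma adjusted p = 0.0136). The other probe annotated to the same RefSeq transcript gave 0.34 ± 0.13 and was not called (limma adjusted p = 0.0600). The 2 probes annotated to another Lamp2 transcript gave 0.41 ± 0.20 and 0.04 ± 0.15 and were not called either. Lamp1, whose window holds 4 E-boxes, had 13.16, 13.13 and 13.09 in denervated and 13.01, 12.84 and 13.03 in control muscle. The denervated values lay just above the control values, and the difference of 0.16 ± 0.11 did not pass (95% confidence interval -0.09 to 0.42). The calcium channel Mcoln1 had a value of 0.29 ± 0.13, with 7.93, 7.67 and 7.77 in denervated muscle against 7.42, 7.39 and 7.70 in control muscle, and was not called (limma adjusted p = 0.114).

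The proton pump changed in part. Of the 8 members tested 3 rose, 0 fell and 5 were not called, with a median of 0.18. The rises were 37.5% and the falls 0%, against 22.2% and 21.6% of all genes. Atp6v1a, the catalytic A subunit of V1, had 9.08, 9.08 and 9.24 on the denervated arrays, against 7.79, 7.17 and 7.89 on the control arrays, a rise of 1.52 ± 0.19 (2.86-fold; limma adjusted p = 0.000301). It was the largest change of any subunit measured. Atp6v1b2, the B subunit, which alternates with A in the ring of V1, had 11.05, 10.97 and 10.88 in denervated and 11.27, 11.35 and 11.13 in control muscle (-0.28 ± 0.12; limma adjusted p = 0.0801). All denervated values of Atp6v1b2 were below the control values, it was the 1 member of the pump that was lower at an unadjusted limma p under 0.05 (0 cathepsins, glycosidases or membrane proteins were), and the 95% confidence interval was 1.09 to 1.94 for Atp6v1a and -0.55 to -0.02 for Atp6v1b2. With the arrays shifted to a common median the log2 fold change of Atp6v1b2 was -0.07 (limma adjusted p = 0.697), and its signals before normalization in denervated muscle were 2618, 2405 and 2313, against 2187, 2295 and 2031 in control muscle. The difference between these genes was not tested, since the pair was chosen after its values had been seen.

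Atp6v1h, the regulatory H subunit, had 11.23, 11.08 and 11.23 in denervated muscle, against 10.06, 10.54 and 10.54 in control muscle (0.80 ± 0.15; limma adjusted p = 0.00316). Atp6v0d1, the d subunit that couples the rotor of V1 to V0, had 11.36, 11.25 and 11.39 in denervated and 10.55, 10.64 and 10.68 in control muscle (0.71 ± 0.11; limma adjusted p = 0.00105). Each of its 4 probes was called higher, at 0.65 to 0.89. The rotor subunit Atp6v1d (0.21 ± 0.12), the stalk subunit Atp6v1e1 (0.16 ± 0.12) and the C subunit Atp6v1c1 (0.02 ± 0.16), which holds the sectors together, were not called and had overlapping groups. The accessory protein Atp6ap1 had 12.92, 12.65 and 12.83 in denervated and 12.86, 12.98 and 12.88 in control muscle (-0.11 ± 0.12).

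Of 16 other subunits listed, 11 were tested, and 7 rose and 1 fell (63.6% and 9.09%, against 22.2% and 21.6% of all genes). Atp6ap2, the other accessory protein and renin receptor, had 12.82, 12.80 and 12.74 in denervated muscle, against 11.82, 11.79 and 11.88 in control muscle (0.96 ± 0.11), and all 4 of its kept probes were called. The stalk subunit Atp6v1g2, known from neurons, rose by 0.93 ± 0.13, and Tcirg1, the a3 subunit of osteoclasts, by 0.77 ± 0.19, a call its other kept probe did not share (0.43). Atp6v0e2 fell by 0.54 ± 0.14, whereas its paralog Atp6v0e rose by 0.72 ± 0.12. Before background correction and normalization the Atp6v0e2 signals overlapped, at 570.7, 564.8 and 682.7 in denervated and 666.5, 625.9 and 541 in control muscle. Taking all 19 subunits tested, 4 of 10 in V1 and 5 of 7 in V0 rose, 0 and 1 fell, and the medians were 0.18 and 0.56. The difference between the sectors was not tested.

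**Figure D3:**
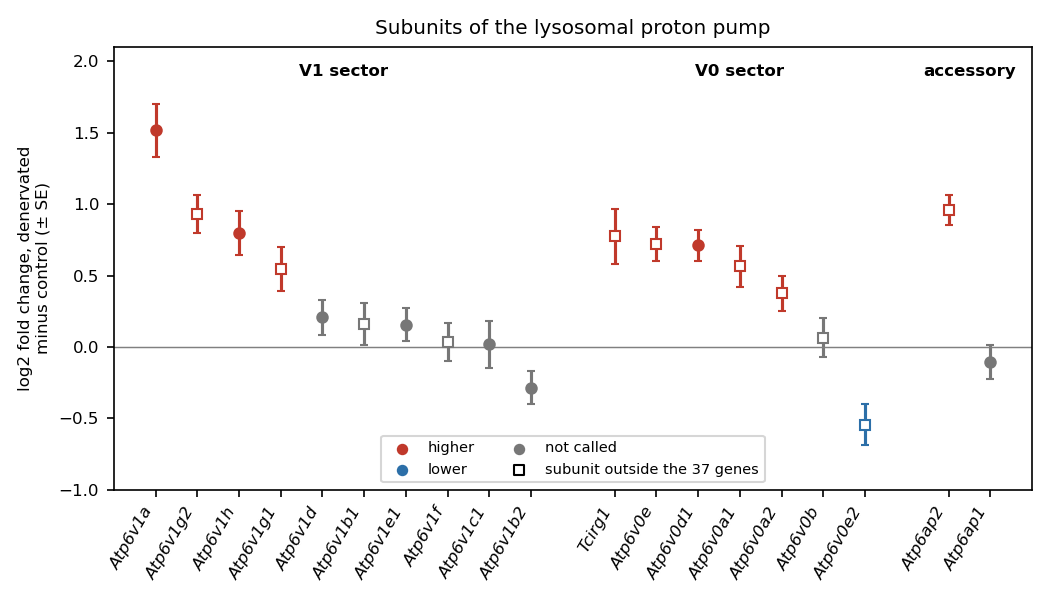
Log2 fold change (y axis, denervated minus control, ± SE) of the 19 V-ATPase subunits tested (x axis), by sector, with subunits outside the 37 genes as open squares. Atp6v1a stands highest at 1.52, and Atp6v1b2 lies at -0.28 in the same sector.

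Tfeb itself was lower in denervated muscle. Its normalized log2 intensity was 6.63, 6.39 and 6.48 on the denervated arrays, against 7.17, 7.30 and 6.93 on the control arrays. The groups did not overlap, and Tfeb fell by 0.63 ± 0.14 (1.55-fold; limma adjusted p = 0.00545). The fall was smaller without background correction (-0.32, limma adjusted p = 0.0124) and with the arrays shifted to a common median (-0.42, limma adjusted p = 0.0321). Before background correction and normalization the Tfeb signals in denervated muscle were 231.9, 204.6 and 230.7, against 231.9, 235.6 and 210.4 in control muscle, and the groups overlapped. The signal was dim, since the lowest values above background lay between 5.60 and 5.92 on the 6 arrays, but the probe was above background on all of them. The other Tfeb probe was above background on 2 of 6 arrays and was not tested. Of its relatives, Tfe3 had 7.71, 7.72 and 7.50 in denervated muscle, against 7.38, 7.62 and 7.61 in control muscle (0.11 ± 0.13, not called), and Mitf and Tfec were too dim to be tested. CACGTG was found in a window of 4 of the 12 rising genes with a window and of 7 of the 18 other members, and TCACGTGA in 3 and 3. These counts are a description, and the 18 other members include Tpp1, Tfeb and 2 genes that were not tested.

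Lysosomal hydrolases outside the 37 genes moved in both directions, with 6 of 17 tested genes higher and 2 lower (35.3% and 11.8%, against 22.2% and 21.6% of all genes) and a median of 0.20. The largest rises were those of the cysteine protease Ctss (1.34 ± 0.19), which is typical of macrophages and was above background on only 1 control array, of the asparaginyl protease Lgmn (1.19 ± 0.15) and of the glucuronidase Gusb (1.04 ± 0.18). Lgmn, which processes cathepsins, had 11.42, 11.60 and 11.94 in denervated muscle, against 10.53, 10.34 and 10.53 in control muscle. The sphingomyelinase Smpd1 fell by 0.69 ± 0.10 and the iduronidase Idua by 0.39 ± 0.12. Before background correction and normalization the Idua signals were 321.8, 322.4 and 324.7 in denervated and 289.5, 318.5 and 297.9 in control muscle. Every denervated signal of Idua, on the brighter arrays, was thus above the control signals, and its fall was seen only after these steps. The signals of the brightest and of the dimmest kept Smpd1 probe were lower in denervated muscle before these steps as well. Those of the remaining kept probe overlapped, at 1324.6, 1167.1 and 1251.4 in denervated and 1065.2, 1164.6 and 1636.6 in control muscle. Smpd1 had 11.25, 11.29 and 11.29 in denervated and 11.93, 12.01 and 11.95 in control muscle, and all 3 of its kept probes were called lower.

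Among 12 other membrane proteins tested 3 rose and 2 fell, with a median of 0.10. These shares of 25% and 16.7% were near those of all genes, 22.2% and 21.6%. The leukocyte protein Laptm5 (1.13 ± 0.17), the sialic acid transporter Slc17a5 (0.43 ± 0.15) and Laptm4a (0.32 ± 0.11) rose, and Laptm4b (-0.56 ± 0.19) and the transporter Mfsd8 (-0.46 ± 0.12) fell. The dim Laptm4b probe was above background on 2 of 3 denervated arrays. Before background correction and normalization its signals were 180.4, 188.7 and 180.9 in denervated and 209.2, 165.8 and 175.3 in control muscle. Those of Mfsd8 were 632.6, 593.4 and 589.3 against 622, 531.9 and 584.4. For both genes the groups overlapped before these steps. Hydrolases reach the lysosome through mannose 6-phosphate tags and their receptors. Of 6 genes of this sorting step 2 rose and 0 fell (33.3% and 0%, against 22.2% and 21.6% of all genes). The receptor Igf2r rose, with 10.64, 10.84 and 10.85 in denervated muscle against 10.03, 9.90 and 9.96 in control muscle (0.81 ± 0.12). Gnptab, a subunit of the enzyme that makes the tag, rose by 0.38 ± 0.11. Gnptg, another subunit, was lower at an unadjusted limma p under 0.05 only (-0.34 ± 0.13). The smaller receptor M6pr (0.19 ± 0.16) was not called. Sort1, a sorting receptor, was not called by its brightest probe (0.37 ± 0.14), but 2 of its 4 kept probes were called higher.

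Macrophages are rich in lysosomes, and their markers were higher on the same arrays. Of 16 listed markers 12 were tested and all 12 rose (100%, against 22.2% of all genes). Their median log2 fold change was 1.26, with values from 0.69 for Aif1 to 1.62 for C1qb. Their summed normalized intensity was 9501 to 11838 on the denervated arrays and 4129 to 4490 on the control arrays. All 12 were above background on the 3 denervated arrays, and all but Cd53 on the 3 control arrays, while Ptprc, Itgam and Fcer1g were too dim to be tested and Csf1r was not analysed here. Adgre1, a surface receptor of macrophages, had 8.80, 8.44 and 8.48 in denervated muscle, against 7.55, 7.14 and 7.24 in control muscle. The part of macrophages in the rises of the lysosomal genes was not tested.

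The medians of the gene groups shared their order over the arrays only in part. The median of the macrophage markers, relative to the mean of all arrays, was 0.86, 0.55 and 0.46 on the denervated arrays, and that of the cathepsins was 0.40, 0.18 and 0.19. Denervated replicate 1 was the highest in both. The same held for the glycosidases (0.35), the membrane proteins (0.29), the lipid and other hydrolases (0.20) and the V-ATPase subunits (0.17). On the control arrays the macrophage markers were lowest on replicate 2 (-0.64), and each of these lysosomal groups, with the cathepsins (-0.36), on replicate 3. Whether other genes share this order was not tested. Without denervated replicate 1, 14 of the 34 lysosomal genes were called higher, as was the case without control replicate 2, against 16 with all arrays. Of the markers of other cell types, 0 of 4 endothelial markers rose and 3 fell (0% and 75%, median -0.55). Before background correction and normalization the signals of these 3 genes overlapped between the groups. Among 6 fibroblast markers 1 rose and 1 fell (16.7% each, median -0.02). Over all genes 22.2% rose and 21.6% fell. Of 3 Schwann cell markers tested Mbp and Pmp22 fell and Ngfr rose, by their brightest probes. A dimmer kept probe of Mbp was called higher (0.66 ± 0.16) and another lower (-1.49 ± 0.29).

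**Figure D4:**
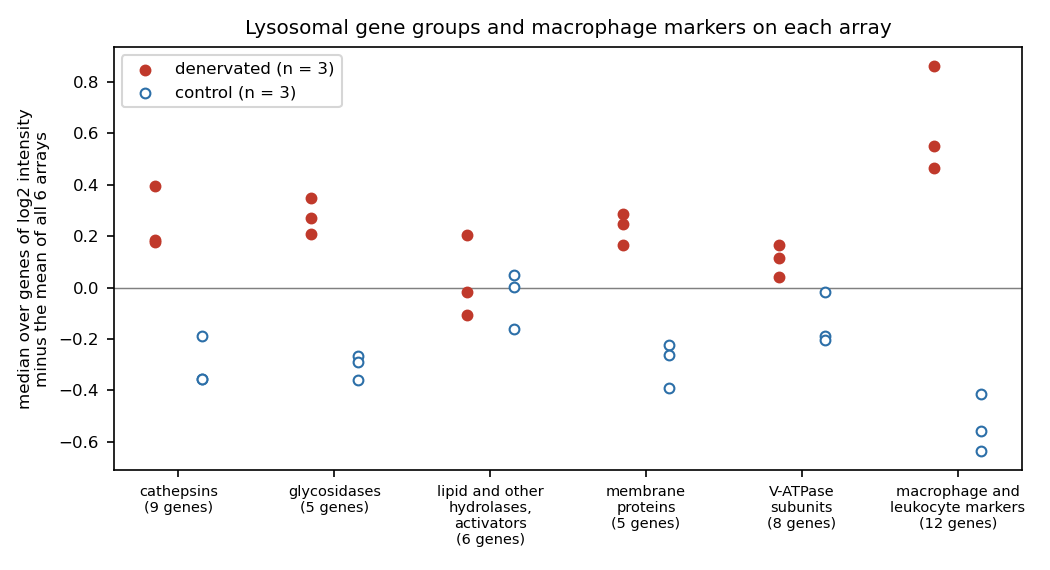
Median over the genes of each group of the log2 intensity minus the mean of all 6 arrays (y axis), on 3 denervated (filled) and 3 control (open) arrays, for 5 groups of lysosomal genes and the macrophage and leukocyte markers (x axis). Denervated replicate 1 has the highest median in every group shown, with 0.86 for the macrophage markers and 0.40 for the cathepsins. The groups of arrays overlap for the lipid and other hydrolases.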

How the data were processed

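Ribosomal RNA was removed, the remaining RNA was amplified to labelled cRNA for the bead arrays, and the authors summarized the beads in GenomeStudio. The deposited table holds, per probe and array, the mean bead intensity, its standard error, how many beads it averaged, and a p-value for detection over negative control beads. The deposited intensity values were neither background-subtracted nor normalized between arrays. A second table of intensity values, quantile-normalized by the authors, was used as an alternative. No sample column was left out (0 columns).

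Intensities were background-corrected (normexp from the detection p-values, offset 16), quantile-normalized and log2-transformed (neqc, limma 3.58.1, R 4.3.3), so that changes of dim probes are understated. Probes with a detection p-value under 0.05 on at least 3 of 6 arrays were kept (12546). Gene names came from the platform annotation (1 gene for 23978 probes, none for 1719), matched by Entrez number to RefSeq for 23962 probes. Where a gene had several kept probes, the brightest (mean of the 6 arrays) stood for it. Groups were compared with lmFit and eBayes over all kept probes and Benjamini-Hochberg adjustment at 0.05. The fit was tested on simulated normalized values, which cannot test the scaling between arrays.

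The named genes were all 37 members, with values per array for those past 2-fold or called lower and for the largest and smallest change of each group, and, from the other lists, up to 3 of the largest rises and every fall per list. Values given beyond that rule were chosen after they had been seen. Members and lists were chosen with earlier results of these data known. The alternatives covered background correction, offset, scaling, the authors' values, the filter on dim probes, a replicate block, the t-test, moderation of the variance, averaging the probes of a gene and omitting each array. The number of arrays limits the precision.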

Additional observations from a re-analysis of the deposited data

How the results depend on the processing

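The 18 called lysosomal genes kept their call in 328 of 342 refits and lost it in 14, the 16 others gained a call in 25 of 303, and 0 called genes changed direction. The count of 16 rises ran from 14 to 22 over all alternatives. The count of falls was 4 in place of 2 without background correction, with the authors' values, with the arrays shifted to the median of the probes detected on all 6, with an unadjusted t-test and with trend and robust moderation, where Psap and Atp6v1b2 were added, and it was 1 with the arrays shifted to the median of all probes, where Psap and Atp6v1b2 were at -0.07. The median log2 fold change of 0.34 was 0.21 without background correction, 0.21 with the authors' values and 0.57 with the median of all probes. With 1 array left out it ran from 0.31 to 0.44, the rises from 14 to 17, the falls stayed at 2 and 2993 to 3449 genes of the whole array were called, against 3829. Same-numbered arrays deviated together at correlations of -0.02, 0.16 and 0.16 across probes, and 4 of 6 arrays correlated best with their own number. The labels do not say that a number marks a mouse, so that pairing is unknown, and the reported fit has no block. With the replicate number as a block 16 members were called higher, 2 lower and 3794 genes in all. In that fit Lipa was called and Asah1 was not. The t-test per probe named 15 rises and 3 falls after adjustment, against 17 and 4 without it. The causes of these shifts were not tested. The arrays give dim probes such as those of Ctsc, Lipa and Tfeb the least signal over background.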
